A study of Oryza sativa with 12 samples.

Results

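Among the 55986 genes of the RNA-Seq table, 1256 were measured at 50 FPKM or more in each of the 12 libraries, and the 300 genes described here were the steadiest of them. FPKM is the number of sequenced fragments of a transcript relative to its length and to the fragments mapped in the library. The members were chosen by their measured FPKM, and a gene was a member if its highest library was at most 1.6 times its lowest. This limit was met by 329 of the 1256 abundant genes (26.2%), of which the 300 with the lowest ratio of highest to lowest library were kept and 29 were left out. The other 956 abundant genes serve as the background. The values of all 12 libraries were used to choose the members, so their steadiness is a description of the choice, and no test is given for it.

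The libraries came from rice seedlings at an age of 8 days. Seedlings of WT (cultivar Nipponbare, genotype wild type) and of *ntl3-1* (genotype NTL3-/- in the labels) were kept for 3 h at 29 ºC (control) or 45 ºC (heat), with 3 replicates in each of the 4 groups. The *ntl3-1* plants are a single line edited in OsNTL3 by CRISPR-Cas9. Seedlings were collected for each replicate, per the methods of the study, and neither the methods nor the labels say how many plants a replicate pooled or whether replicates were grown apart. The labels give the genotype and a control or heat treatment, and the allele name and the temperatures follow the methods of the study.

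OsNTL3 is a NAC transcription factor held at a membrane, which is released under stress and then enters the nucleus. In plants at high temperature, genes for chaperones are strongly induced while transcripts of many other genes decline. Genes with steady transcript levels are used as references, because the level of any other gene is then expressed relative to them. An FPKM value is itself relative, since it is set against the fragments of a library and does not give the number of transcripts in a cell. The deposited values differed in sum between libraries, so an equal FPKM is not an equal share of that sum. In whole seedlings, a lower value from fewer cells of a type and one from less RNA per cell cannot be told apart.

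The sources used here gave a role to only 1 of the 300 members. The product names in the study's supplementary gene lists covered 3185 loci, 114 of them among the 1256 abundant genes and 0 among the members. The study describes these lists as differentially expressed heat-responsive genes, so genes as steady as the members were unlikely to be listed. The gene table of the reference matched 0 of the members. The members are therefore named by locus, with the chromosome read from the locus name, and no protein family is assigned to them. Leaf markers could not be looked up for the same reason, since these product names held 0 chlorophyll a-b binding loci.

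The ratio of the highest to the lowest library ranged from 1.1 to 1.57 over the members, with a median of 1.4. It was at most 1.2 for 9 members, at most 1.3 for 66 and at most 1.5 for 232. Over all 1256 abundant genes the median ratio was 2.01, and 637 of them differed by more than 2 times between their extreme libraries. The coefficient of variation over the 12 libraries ranged from 2.97% to 17.5% among the members, with a median of 10.4% against 27.2% among the other abundant genes. The distribution had no gap at the limit of the rule.

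**Figure D1:**
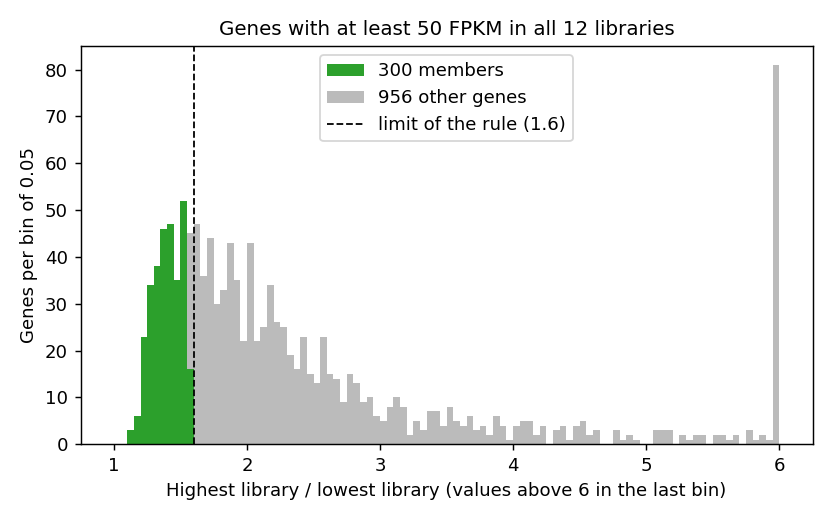
Number of genes (y axis, per bin of 0.05) by the ratio of the highest to the lowest library (x axis, values above 6 in the last bin) for the 1256 genes with at least 50 FPKM in all 12 libraries. The 300 members (green) end at 1.57, and the 956 other genes (grey) continue past the limit of 1.6 (dashed line) without a gap.

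The genes at the edge of the choice show this. LOC_Os10g39120 (chromosome 10), with a ratio of 1.566, and LOC_Os02g09150 (chromosome 2), with 1.567, were the last members. LOC_Os04g55650 (chromosome 4), with 1.567, and LOC_Os10g42250 (chromosome 10), with 1.568, were the first genes left out. LOC_Os02g09150 was at 99.8, 98.0 and 106 FPKM in WT at 29 ºC, 95.3, 84.3 and 84.3 at 45 ºC, 108, 120.1 and 102 in *ntl3-1* at 29 ºC, and 91.6, 90.03 and 76.6 at 45 ºC. LOC_Os04g55650 was at 299, 338 and 359.6 FPKM in WT at 29 ºC, 309, 281 and 369 at 45 ºC, 406, 388 and 441 in *ntl3-1* at 29 ºC, and 368, 313 and 332 at 45 ºC. Neither pattern is flat, and the 2 genes fall on different sides of the choice by their ratio alone.

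The steadiest member was LOC_Os09g33500 on chromosome 9. It was measured at 83.0, 88.4 and 88.2 FPKM in WT at 29 ºC, at 88.9, 88.2 and 89.3 in WT at 45 ºC, at 86.7, 86.4 and 83.3 in *ntl3-1* at 29 ºC and at 90.4, 90.1 and 91.3 in *ntl3-1* at 45 ºC. The temperatures overlapped in WT and did not overlap in *ntl3-1*, where the whole difference was 0.08 on the log2 scale. LOC_Os04g32560 (chromosome 4) followed with a ratio of 1.14, at 108, 115 and 118 FPKM in WT at 29 ºC, 123, 121 and 120.2 at 45 ºC, 114, 121 and 112 in *ntl3-1* at 29 ºC, and 116, 110.4 and 121 at 45 ºC. Its WT libraries at 45 ºC all lay above those at 29 ºC, and in *ntl3-1* the temperatures overlapped.

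LOC_Os04g32020 (chromosome 4), also with a ratio of 1.14, was the member of lowest mean. It was measured at 51.8, 53.1 and 54.3 FPKM in WT at 29 ºC, 55.7, 52.9 and 54.2 at 45 ºC, 57.0, 54.4 and 54.9 in *ntl3-1* at 29 ºC, and 58.5, 51.1 and 52.1 at 45 ºC. At 29 ºC the *ntl3-1* libraries lay just above those of WT, and at 45 ºC the genotypes overlapped, with the widest spread in *ntl3-1*. Next to it in mean level stood LOC_Os01g42430 (chromosome 1), between 53.3 and 64.8 FPKM with a ratio of 1.22.

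Among the next 7 in the order, LOC_Os03g13970 (chromosome 3) lay between 59.8 and 69.1 FPKM, LOC_Os05g38630 (chromosome 5) between 57.6 and 67.0, LOC_Os09g33986 (chromosome 9) between 62.7 and 73.3 and LOC_Os05g27950 (chromosome 5) between 65.6 and 76.97. LOC_Os02g08380 (chromosome 2) lay between 66.8 and 79.4 FPKM and LOC_Os01g58220 (chromosome 1) between 72.2 and 86.7. The most abundant of the 10 steadiest was LOC_Os03g22810 (chromosome 3). It was at 165, 163 and 169 FPKM in WT at 29 ºC, 175, 170.1 and 167 at 45 ºC, 168, 154 and 149.8 in *ntl3-1* at 29 ºC, and 176, 152 and 152 at 45 ºC. Its replicates were closer to each other in WT than in *ntl3-1*.

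**Figure D2:**
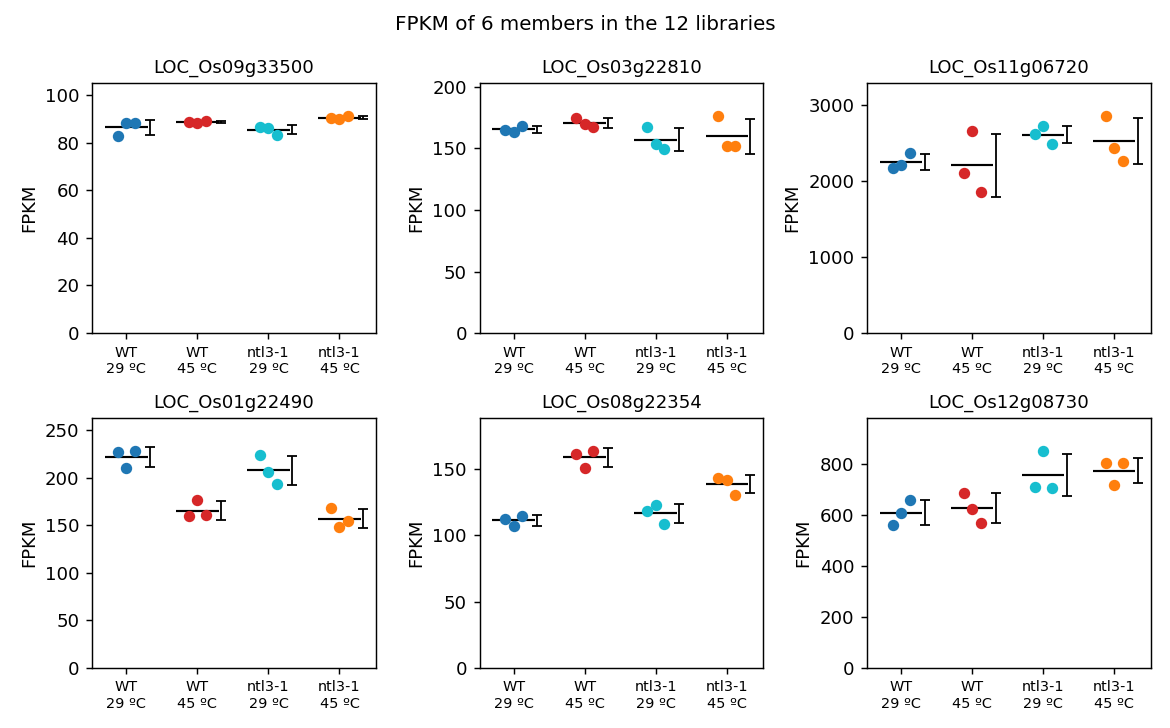
FPKM (y axis, from 0) of 6 members in each of the 12 libraries (points), by genotype and temperature, with the mean (line) and SD (bar) of the 3 replicates. LOC_Os09g33500 and LOC_Os03g22810 are among the 10 steadiest members, and LOC_Os11g06720 is the most abundant. The libraries of LOC_Os01g22490 and LOC_Os08g22354 do not overlap between temperatures. Those of LOC_Os12g08730 do not overlap between genotypes, a difference that limma called at neither temperature.

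The members were the less abundant part of the abundant genes. Their mean over the 12 libraries ranged from 54.2 to 2394 FPKM with a median of 90.8, against a median of 171 FPKM for the other abundant genes. A mean of at least 100 FPKM was reached by 131 members, at least 500 by 5 and at least 1000 by 2. Of the 373 abundant genes with a mean of 50 to 100 FPKM, 48.0% met the limit of 1.6. The share was 23.1% of 450 genes at 100 to 200 FPKM, 14.6% of 280 genes at 200 to 500 FPKM and 3.27% of 153 genes at 500 FPKM or more. The floor of 50 FPKM in every library contributes to this order, since a gene with a mean just above 50 FPKM can pass it only if it varies little.

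The most abundant member by far was LOC_Os11g06720 on chromosome 11. It was measured at 2171, 2212 and 2366 FPKM in WT at 29 ºC, 2102, 2656 and 1849 at 45 ºC, 2614, 2717 and 2489 in *ntl3-1* at 29 ºC, and 2852, 2436 and 2264 at 45 ºC. Its replicates at 45 ºC were spread more widely (SD 413 FPKM in WT and 302 in *ntl3-1*, n = 3 each) than those at 29 ºC (103 and 114). At 29 ºC every *ntl3-1* library was above every WT library, and at 45 ºC the genotypes overlapped.

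LOC_Os07g25430 (chromosome 7) was at 920.0, 906 and 991 FPKM in WT at 29 ºC, 1223, 1072 and 957 at 45 ºC, 1085, 1339.7 and 1174 in *ntl3-1* at 29 ºC, and 1288, 1151 and 1242 at 45 ºC. Of all members it had the largest difference between genotypes at 29 ºC, 0.35 on the log2 scale, with no overlap. LOC_Os12g08730 (chromosome 12) was at 558, 608 and 657 FPKM in WT at 29 ºC, 686, 624 and 569 at 45 ºC, 709, 851 and 706 in *ntl3-1* at 29 ºC, and 801, 716 and 802 at 45 ºC. All 6 of its *ntl3-1* libraries lay above all 6 WT libraries, with a log2 difference of 0.31 at each temperature.

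LOC_Os03g63950 (chromosome 3) was at 587, 581 and 662 FPKM in WT at 29 ºC, 824, 818 and 819 at 45 ºC, 600.1, 699 and 566 in *ntl3-1* at 29 ºC, and 718, 648 and 580.4 at 45 ºC. Its heat change was 0.43 on the log2 scale in WT, with no overlap, and 0.06 in *ntl3-1*, where the temperatures overlapped. LOC_Os04g50970 (chromosome 4) was at 559, 463 and 643 FPKM in WT at 29 ºC, 710.5, 634 and 670.0 at 45 ºC, 491, 531 and 494 in *ntl3-1* at 29 ºC, and 685, 620.0 and 638 at 45 ºC. It was higher at 45 ºC by 0.29 in WT, where the ranges overlapped, and by 0.36 in *ntl3-1*, where they did not. The most abundant members thus used much of the room that the limit leaves, with ratios from 1.46 to 1.54.

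Within the limit of 1.6, the members were not free of temperature. The mean log2 difference of 45 ºC minus 29 ºC ranged from -0.43 to 0.51 in WT, with a median of 0.06, and it was above 0 for 184 members and below 0 for 116. In *ntl3-1* it ranged from -0.42 to 0.45 with a median of 0.04, and 168 members were above 0. The median in WT was 0.0395 without replicate 1 of WT at 29 ºC, and that in *ntl3-1* was -0.000288 without replicate 1 of *ntl3-1* at 45 ºC and 0.00967 without replicate 3 of *ntl3-1* at 29 ºC, so a direction of the median in *ntl3-1* rests on single libraries. The difference was within 0.1 of 0 for 105 members in WT and for 98 in *ntl3-1*. For the 17004 genes that exceeded 1 FPKM in every library, the median was 0.03 in WT and 0.02 in *ntl3-1*. The median of the members lay above it by 0.03 in WT and by 0.01 in *ntl3-1*.

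For 41 members all 6 libraries at 45 ºC lay above all 6 at 29 ºC, and for 29 members all 6 lay below, which left 230 members whose temperatures overlapped. Among the 31681 genes tested, which are those detected in 3 or more libraries, 19.6% were higher without overlap and 18.4% lower. Among the 1256 abundant genes these shares were 38.8% and 13.0%, and nothing is read from the lower count of the members, because the rule limits the distance between libraries. The 41 higher members had a median difference of 0.35 on the log2 scale in WT and 0.29 in *ntl3-1*. The 29 lower ones had a median of -0.22 in WT and -0.28 in *ntl3-1*.

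Within WT alone, 93 members were higher and 53 lower at 45 ºC without overlap of 3 against 3 libraries, where 26.7% and 28.3% of all genes tested were. In *ntl3-1* the counts were 70 and 54, against 27.9% and 29.5% of all genes tested. In both genotypes, 50 members were higher and 37 lower without overlap, where 21.9% and 21.9% of all genes tested were, and 0 members moved in opposite directions without overlap, against 0.234% of all genes tested.

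LOC_Os08g22354 (chromosome 8) had the largest positive heat difference in WT. It was at 113, 107 and 115 FPKM in WT at 29 ºC, 162, 151 and 164 at 45 ºC, 119, 123 and 108 in *ntl3-1* at 29 ºC, and 143, 142 and 131 at 45 ºC. All libraries at 45 ºC were above all at 29 ºC, by 0.51 on the log2 scale in WT and 0.25 in *ntl3-1*. LOC_Os01g71230 (chromosome 1) had the largest negative one, -0.43 in WT. It was at 79.8, 74.0 and 74.2 FPKM in WT at 29 ºC, 51.8, 65.9 and 52.7 at 45 ºC, 76.3, 67.2 and 70.7 in *ntl3-1* at 29 ºC, and 56.9, 53.5 and 52.2 at 45 ºC. Its temperatures did not overlap in either genotype.

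In *ntl3-1* the largest positive difference, 0.45, belonged to LOC_Os04g38870 (chromosome 4). It was at 228, 217 and 249 FPKM in WT at 29 ºC, 269, 247 and 279 at 45 ºC, 219, 219 and 221 in *ntl3-1* at 29 ºC, and 312, 256 and 335 at 45 ºC. The temperatures overlapped in WT and were apart in *ntl3-1*. The largest negative difference there, -0.42, belonged to LOC_Os01g51200 (chromosome 1). It was at 66.3, 75.2 and 75.5 FPKM in WT at 29 ºC, 66.1, 65.9 and 76.7 at 45 ºC, 72.9, 73.7 and 72.4 in *ntl3-1* at 29 ºC, and 58.3, 54.6 and 51.2 at 45 ºC. Its *ntl3-1* libraries at 45 ºC stood below all 9 others.

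The heat differences of the members mostly shared their direction between the genotypes. They had the same sign for 250 of 300 members, upward in 151 and downward in 99. The same sign was found for 902 of the 956 other abundant genes. For 33 members the difference was positive in WT and negative in *ntl3-1*, and for 17 the reverse. Across the 300 members, which share the same libraries and are not independent replicates, the correlation of the 2 differences was r = 0.820, against 0.970 across the 956 other abundant genes, whose range is far wider. Different libraries enter the difference in WT and that in *ntl3-1*.

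**Figure D3:**
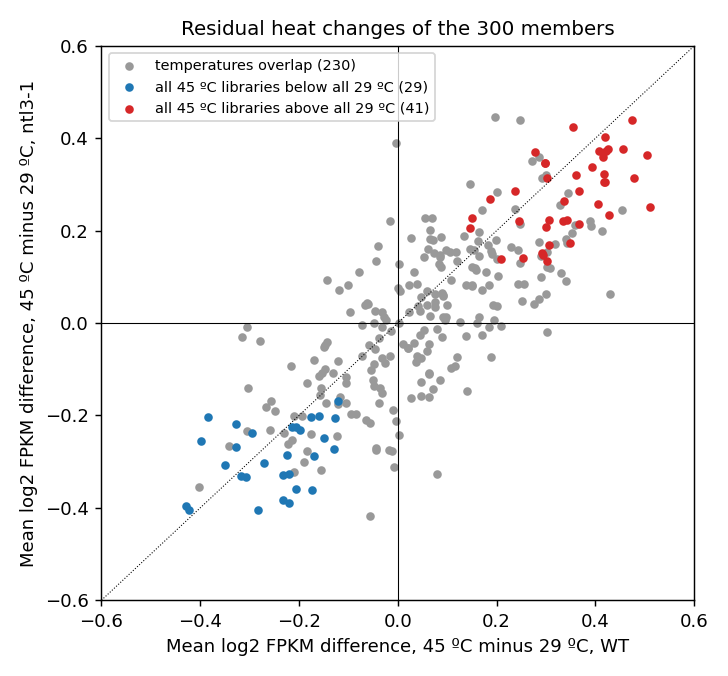
Mean log2 FPKM difference of 45 ºC minus 29 ºC in WT (x axis) and in *ntl3-1* (y axis), with 1 point for each of the 300 members. Red marks the 41 members whose 6 libraries at 45 ºC all exceeded the 6 at 29 ºC, and blue the 29 with the reverse. This choice of colour places red points above 0 and blue points below 0 on both axes. The 230 others are grey, and the dotted line is the diagonal of equal differences.

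The spread of a member can be divided into a part between the 4 groups and a part between replicates. On the log2 scale, the median SD of replicates within groups was 0.105 and the median SD of the 4 group means was 0.119. The second exceeded the first for 170 of 300 members, and for 813 of the 956 other abundant genes. The part between groups made up a median of 57.3% of a member's sum of squares over the 12 libraries, against 86.1% in the other abundant genes. Group means of 3 replicates also carry replicate variation, so neither this share nor the SD of group means reflects group differences alone. The share ran from 2.74% to 94.5% among the members, so genes with a similar ratio could differ in what the ratio consisted of.

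The 2 ends of that range were picked after the values had been seen. LOC_Os02g07910 (chromosome 2), with 2.74%, was at 222, 214 and 234 FPKM in WT at 29 ºC, 242, 229.7 and 210.0 at 45 ºC, 225, 222 and 226 in *ntl3-1* at 29 ºC, and 253, 217 and 217 at 45 ºC. The group means lay between 223 and 229 FPKM, closer together than the replicates of most groups. LOC_Os10g33800 (chromosome 10), with 94.5%, was at 225, 235 and 235 FPKM in WT at 29 ºC, 289, 294 and 294 at 45 ºC, 235, 236 and 229 in *ntl3-1* at 29 ºC, and 287, 271 and 259 at 45 ºC. Its highest library was 1.305 times its lowest, and every library at 45 ºC was above every library at 29 ºC.

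Differences between the genotypes covered a narrower range than those between temperatures. The log2 difference of *ntl3-1* minus WT had a median of 0.01 at 29 ºC (range -0.25 to 0.35) and of -0.04 at 45 ºC (range -0.35 to 0.37). The median at 29 ºC ran from -0.00427 without replicate 1 of WT at 29 ºC to 0.0480 without replicate 3, and the one at 45 ºC from -0.0677 to -0.0201, when replicate 1 of *ntl3-1* or replicate 2 of WT at 45 ºC was left out. At 29 ºC, 38 members were higher and 30 lower in *ntl3-1* without overlap, where 13.1% and 12.6% of all genes tested were. At 45 ºC the counts were 15 and 22, against 7.24% and 6.71% of all genes tested. In 79 members the libraries overlapped in each of the 4 comparisons of 2 groups, against 25.6% of all genes tested and 83 of the 956 other abundant genes.

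Across both temperatures, the 6 libraries of *ntl3-1* lay above the 6 of WT for LOC_Os12g08730 and for LOC_Os08g41460, and below them for LOC_Os05g38630, against 1.01% higher and 0.312% lower among all genes tested. LOC_Os08g41460 (chromosome 8), named after its values had been seen, was at 117, 140.2 and 133 FPKM in WT at 29 ºC, 139.7, 118 and 125 at 45 ºC, 147, 164 and 152 in *ntl3-1* at 29 ºC, and 149.8, 146 and 169 at 45 ºC. LOC_Os05g38630 was at 67.0, 66.3 and 63.0 FPKM in WT at 29 ºC, 62.6, 65.1 and 64.2 at 45 ºC, 61.8, 57.7 and 57.6 in *ntl3-1* at 29 ºC, and 62.3, 59.4 and 58.2 at 45 ºC. It is the fifth steadiest member of all, and the genotypes are separated by less than 1 FPKM at their closest libraries.

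The largest negative genotype difference at 29 ºC, -0.25, was that of LOC_Os12g37870 (chromosome 12). It was at 82.1, 85.6 and 85.9 FPKM in WT at 29 ºC, 83.7, 82.3 and 80.7 at 45 ºC, 72.9, 70.6 and 69.5 in *ntl3-1* at 29 ºC, and 75.7, 79.4 and 84.1 at 45 ºC. The *ntl3-1* libraries at 29 ºC were the 3 lowest of the 12. At 45 ºC, the largest negative difference was the -0.35 of LOC_Os01g51200, and the largest positive one was 0.37 for LOC_Os01g61920 (chromosome 1). The latter was at 102, 96.6 and 110.0 FPKM in WT at 29 ºC, 95.9, 104 and 108 at 45 ºC, 105, 99.0 and 100.4 in *ntl3-1* at 29 ºC, and 137, 135 and 127 at 45 ºC. Only the heat-stressed *ntl3-1* libraries stood apart, all 3 above the other 9.

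The same fit that is used for all genes, limma on log2(FPKM + 0.1) with p-values adjusted by the Benjamini-Hochberg method over 31681 genes, called 93 of the 300 members for heat in WT, against 48.5% of all genes tested. The threshold was an adjusted p of 0.05. Of these members, 64 were higher and 29 lower at 45 ºC, where 24.3% of all genes tested were higher and 24.3% lower. In *ntl3-1* it called 76 members, 41 higher and 35 lower, against 47.4% of all genes tested, with 23.7% higher and 23.7% lower. In both genotypes, 30 members were called higher and 20 lower, against 20.3% and 18.8% of all genes tested, and 181 members were called in neither, against 43.2%.

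The balance of directions rested on single libraries in *ntl3-1*, and on the scale in both genotypes. In *ntl3-1* the calls were 24 higher and 32 lower without replicate 1 of *ntl3-1* at 45 ºC, 26 and 29 without replicate 3 of *ntl3-1* at 29 ºC, and 38 and 38 without replicate 2 of WT at 45 ºC. In WT the lower calls were 16 without replicate 3 of WT at 29 ºC, 19 without replicate 1 and 19 without replicate 3 of WT at 45 ºC, and the higher calls outnumbered them in every such fit. With the median of the members set equal, the calls were 49 higher and 46 lower in WT and 40 and 45 in *ntl3-1*, and with quantile normalization or equal sums all calls were lower.

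The difference between the 2 heat responses was called for 0 members and for 0.240% of all genes, and 8 members had an unadjusted p of at most 0.05 in limma, against 7.62% of all genes. The genotype was called for 0 members at 29 ºC (20 at an unadjusted p of at most 0.05, against 13.6% of all genes, and 1 with a constant of 1 FPKM), against 2.75% of all genes, and at 45 ºC for LOC_Os01g61920 alone, against 1.62% of all genes. The number called at 45 ºC was 0 in 10 of the 12 fits that each left out 1 library, all except those without replicate 3 of WT at 29 ºC or at 45 ºC. These counts describe the choice, because the rule read the same 12 libraries. With a change of at least 2 times required as well, 0 members were called in any of these comparisons. For the comparisons of 2 groups this follows from the limit of 1.6. For the difference between the heat responses, 0 members were called already without that requirement.

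One member had been singled out by the study. In its chromatin immunoprecipitation, LOC_Os01g22490 on chromosome 1 and LOC_Os12g02210 on chromosome 12 were taken as loci that do not depend on OsNTL3. LOC_Os01g22490 was at 227, 210.0 and 229 FPKM in WT at 29 ºC, 159, 177 and 160.5 at 45 ºC, 224, 206 and 193 in *ntl3-1* at 29 ºC, and 168, 148 and 155 at 45 ºC. Its means were 222 ± 10.3, 166 ± 9.72, 208 ± 15.4 and 157 ± 10.003 FPKM (SD, n = 3 each), in the same order. The gene was lower at 45 ºC in every library, by -0.42 on the log2 scale in WT and -0.40 in *ntl3-1*, and the genotypes overlapped at 45 ºC and at 29 ºC. With a ratio of 1.54 it ranked 281 among the 300 members, and 89.6% of its sum of squares lay between the groups.

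LOC_Os12g02210 was far from the members. It was at 0.504, 0.218 and 0.408 FPKM in WT at 29 ºC, 9.88, 4.52 and 16.3 at 45 ºC, 0.479, 0.664 and 0.896 in *ntl3-1* at 29 ºC, and 12.6, 6.75 and 9.49 at 45 ºC. It rose with heat by 4.31 on the log2(FPKM + 0.1) scale in WT with a standard error of 0.44 and an adjusted p of 1.92e-05 in limma. In *ntl3-1* it rose by 3.63 with an adjusted p of 7.12e-05 in limma. Between the genotypes, these responses differed by -0.68, which did not pass the test (adjusted p = 0.902 in limma). The pair therefore had opposite heat differences in these libraries, one downward within the limit of 1.6 and one upward far outside it.

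As a group the members were level over the libraries. The median over the 300 members was 88.7 to 94.2 FPKM in the 6 libraries at 29 ºC and 89.4 to 96.3 FPKM in the 6 at 45 ºC. The median log2 deviation from each member's own mean ran from -0.07 in replicate 1 of WT at 29 ºC to 0.07 in replicate 1 of *ntl3-1* at 45 ºC. Replicate 1 of WT at 29 ºC held the lowest value of 61 members, and replicate 1 of *ntl3-1* at 45 ºC the highest value of 52. Replicate 3 of WT at 45 ºC was the highest library for 45 members and the lowest for 44, the widest spread of any library. The highest value fell in a library at 45 ºC for 191 members and at 29 ºC for 109, and the lowest value was divided 149 to 151. By genotype the highest value was in WT for 158 members and the lowest in WT for 160.

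**Figure D4:**
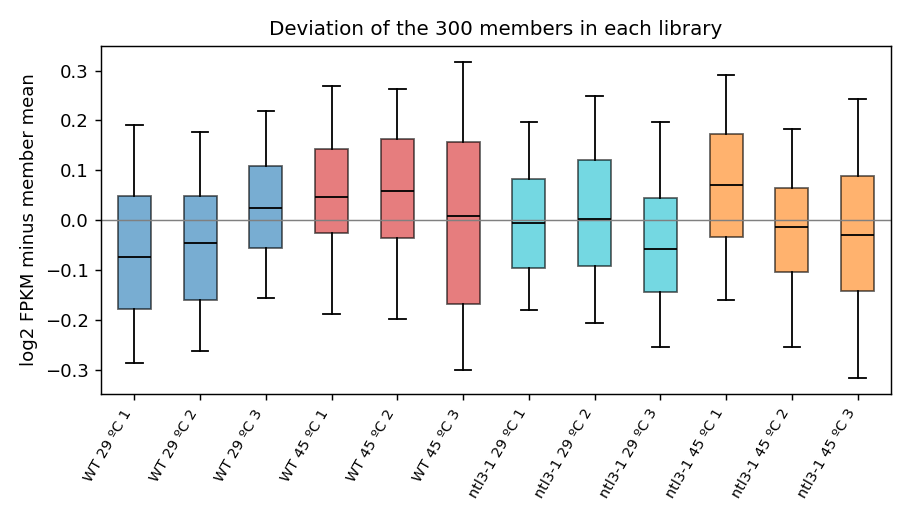
Deviation of the 300 members from their own mean (y axis, log2 FPKM) in each of the 12 libraries, as median (line), quartiles (box) and 5th to 95th percentile (whiskers). The medians lie between -0.07 and 0.07, and the box of replicate 3 of WT at 45 ºC is the tallest.

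The level of the members depended on the scale. The FPKM of all genes summed to 610880 to 698971 in the libraries at 29 ºC and to 1153023 to 1369236 in those at 45 ºC, so the sums were not equal between temperatures. The members held 5.67% to 6.15% of the sum at 29 ºC and 2.84% to 3.59% at 45 ºC. The FPKM that a single read contributes was estimated from genes above 0 and below 0.3 FPKM in both of 2 libraries. The estimate was the most frequent ratio between the libraries, and reading it as the value of a read is an assumption. Relative to replicate 1 of WT at 29 ºC, this ratio was 0.880 to 1.08 for the remaining control libraries and 1.69 to 2.04 for the heat-stressed ones. Size factors from the median of ratios over genes ranged only from 0.997 to 1.03, so on the deposited scale the typical gene was level between libraries. Whether the authors scaled the values in this way is not stated in the sources used here.

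When every library was scaled to the same sum, all 300 members were lower in each of the 6 libraries at 45 ºC than in any at 29 ºC, and 0 members met the limit of 1.6. Their ratios then ran from 1.65 to 3.49 with a median of 2.41. The median heat difference was -0.91 in WT and -0.88 in *ntl3-1*, while the median over those 17004 genes shifted to -0.94 and -0.89. This scaling moves all genes of a library alike, so the distance between the members and those genes is the same as on the deposited scale by construction. On the scale of equal sums 223 genes met the rule, of which 0 were members and 1 was among the 329 that met it as deposited. These 223 genes were higher at 45 ºC in the deposited values, with a median of 0.91 in WT and 0.81 in *ntl3-1*.

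Quantile normalization, which gives every library the same distribution of values, placed 280 members lower in all 6 libraries at 45 ºC. Their median heat difference was -0.68 in WT and -0.63 in *ntl3-1*, against a shift of -0.16 and -0.15 for the genes above 1 FPKM, and 39 of the 300 members met the rule. After median-of-ratios rescaling, 298 of the 300 met the floor and the limit, and 289 were among the 300 steadiest taken again. On that scale 26 were lower and 44 higher at 45 ºC without overlap. With the median of the members set equal in all libraries (chosen after seeing the data), 287 met both and 272 were taken again. Then 37 were lower and 37 higher without overlap. The steadiness of the members therefore holds for the deposited scale and the scalings close to it, and not for equal sums or quantile normalization. Whether their transcripts per cell were steady was not measured.

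**Figure D5:**
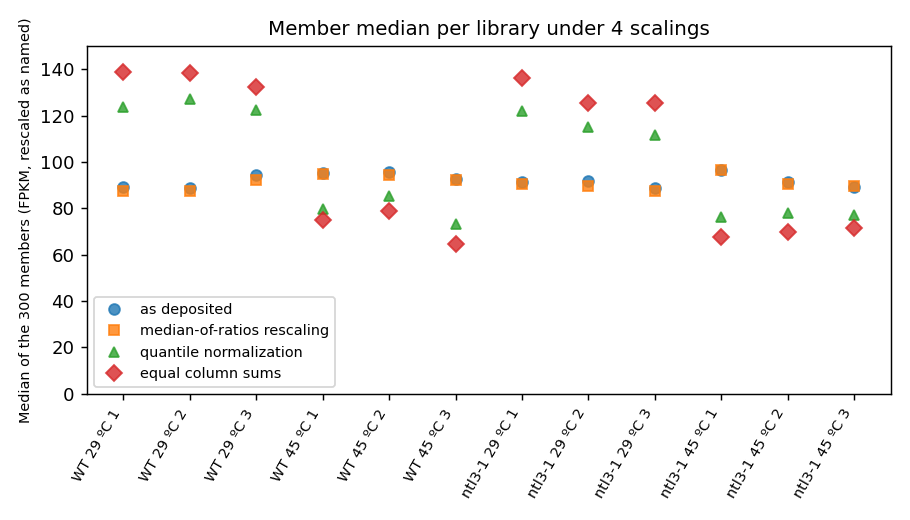
Median of the 300 members (y axis, FPKM, rescaled as named) in each of the 12 libraries under 4 scalings. As deposited (circles) and after median-of-ratios rescaling (squares) the libraries are level, and with quantile normalization (triangles) or equal sums (diamonds) the 6 libraries at 45 ºC fall below the 6 at 29 ºC.

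The members were spread over the 12 chromosomes. Chromosome 3 held the most, 50 members (16.7%), where 15.8% of the abundant genes and 9.95% of all 55986 genes lie, and chromosome 12 the fewest, 11. On each chromosome between 20.4% and 28.4% of the abundant genes were members. Next neighbours in the table were both members in 8 pairs. The pair LOC_Os06g43650 and LOC_Os06g43660 (chromosome 6) had mean levels of 86.1 and 234 FPKM and the low ratios of 1.252 and 1.27. In the pair LOC_Os07g25420 and LOC_Os07g25430 (chromosome 7) the means were 78.0 and 1112 FPKM, with ratios of 1.504 and 1.48. Neighbouring members could thus differ widely in level. Whether members share reads with near-identical copies or with overlapping genes was not assessed, since no sequences or coordinates were used here.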

How the data were processed

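Seedling RNA of 4 groups with 3 replicates each was sequenced after library preparation from total RNA. Per the methods of the study, the authors filtered reads with SeqPrep and Sickle, used TopHat for alignment to rice (MSU annotation) and RSEM to compute FPKM. The submitters' processing notes name Bowtie 0.12.2 and the build mm8, which is a mouse build, and the header has the form of a Cuffnorm table. The values used here are the FPKM deposited by the authors, 1 column per library, and 0 columns were left unused. No read counts were used, so the depth is unknown, and counting error could not be given. The correlation between replicates of the same group was r = 0.940 to 0.958 (log2 scale, genes with a mean above 1 FPKM), and 0 libraries were copies of another.

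The members, the gene lists and the tests were chosen with earlier results of these data known. Ratios and differences of members were computed on log2 FPKM. All genes detected (FPKM above 0) in 3 or more libraries entered a linear model of log2(FPKM + 0.1) with 4 group means in limma 3.58.1 (R 4.3.3), with a variance trend, and p-values were two-sided and adjusted by the Benjamini-Hochberg method. Differences on this scale understate the change of low genes. The fit was also run on simulated data with independent noise, and nothing here rests on the outcome. Tables were made in Python with pandas 2.3.3 and numpy 2.4.6, and plots with matplotlib 3.10.9.

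The genes named are the 10 members with the lowest ratio, the 5 of highest and the 2 of lowest mean FPKM, the 2 just inside and the 2 just outside the choice, the member with the largest difference in each direction in the 4 comparisons of 2 groups, and every member that the study names. Others were chosen after their values had been seen: LOC_Os02g07910, LOC_Os10g33800, LOC_Os08g41460, LOC_Os12g02210 and the neighbours. Protein families were to be found by product name, and 0 members had one.

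The alternatives tried were floors of 20 and 100 FPKM, limits of 1.5 and 2, and group means in place of libraries. Further ones were other constants and filters, 4 scalings, a replicate block, no variance trend, a fold threshold, and each library left out in turn. Sequences of the members and their promoters were not analysed here.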

Additional observations from a re-analysis of the deposited data

Results flagged for a closer look

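Only the 25 members named by the stated rules were screened for opposite movement, and 3 of them showed it. In each, all libraries of one group lay on one side of its control mean and those of the other group on the opposite side. The difference was not tested for them beyond the fit over all genes, in which the interaction was called for 0 members. LOC_Os01g58220 was 0.0541 higher in *ntl3-1* than in WT on the log2 scale at 29 ºC, where the *ntl3-1* libraries were at 78.8, 75.1 and 75.9 FPKM and the WT libraries at 72.2, 74.5 and 74.6. At 45 ºC its genotype difference was -0.0715, with *ntl3-1* at 80.0, 76.1 and 74.0 FPKM and WT at 81.0, 86.7 and 74.4, and the ranges overlapped. For LOC_Os01g51200, the genotype difference was 0.0169 at 29 ºC, where the ranges overlapped, and -0.345 at 45 ºC, where they did not. LOC_Os12g37870 had a heat difference of -0.0396 in WT, with overlap, and of 0.166 in *ntl3-1*, without overlap.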

How the results depend on the processing

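The choice of members depended on the floor, the limit and the scale. As stated, 329 genes met the rule. A floor of 20 FPKM gave 1105 genes and one of 100 FPKM gave 104, of which 82 and 91 were among the 300 members once the 300 steadiest were taken again. A limit of 2 times gave 619 genes, and group means in place of libraries gave 666. Of the 300 members, 39 met the rule after quantile normalization and 0 with equal sums, where the median ratio was 2.01 and 2.41. These scalings also set the heat differences. The median in WT was -0.68 after quantile normalization and -0.91 with equal sums, and in *ntl3-1* it was -0.63 and -0.88. Limma called 291 and 300 members in WT and 288 and 300 in *ntl3-1*, all lower. The median interaction turned from -0.04 to 0.0256 and 0.0140, and the genotype difference at 29 ºC from 0.01 to -0.0702 and -0.0690. With the members' median set equal in all libraries, an alternative chosen after seeing the data, the median heat difference in WT was 0.0061.

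The genotype at 29 ºC was called for 1 member with a constant of 1 FPKM and for 1 after quantile normalization. At 45 ºC it was called for 0 members after quantile normalization, without a variance trend or with a fold threshold of 1 on the log2 scale. With equal sums it was called for 1 member, lower in *ntl3-1*, whereas the 1 called in the main fit, LOC_Os01g61920, was higher. The fold threshold left 0 members for heat in either genotype, and 7920 of all genes in WT and 7677 in *ntl3-1*. The interaction was called for 76 of all genes, and for 25 with a filter of 1 FPKM. Leaving out 1 library at a time, between 260 (without replicate 3 of WT at 45 ºC) and 295 of the members were chosen again. The median interaction ran from -0.0808 (without replicate 1 of *ntl3-1* at 45 ºC) to -0.0323. Between 64 and 98 members were called for heat in WT, 55 to 85 in *ntl3-1*, and 0 to 1 for the genotype at 45 ºC. Over all genes, 23 to 61 had an interaction and 450 to 1068 differed by genotype at 29 ºC. The cause of these changes was not tested.

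Samples that share a replicate number did not deviate together, with correlations from -0.089 to 0.085 and 0 of 18 pairs over 0.1. Whether samples of one number were grown or handled together is not stated, and these correlations cannot show it. With the replicate number as a block, the interaction was called for 50 of all genes and the genotype at 45 ºC for 0 members. Read counts were not used, so how depth limits these values is unknown.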
